A study of Mus musculus with 6 samples.

Results

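The genes described here are 9 genes of B-lineage commitment and of the pre-B cell receptor, namely Ebf1, Pax5, Lef1, Vpreb1, Vpreb3, Igll1, Cd79a, Cd79b and Blnk, taken by symbol from a table of 55573 genes. All 9 were found in the table and all 9 passed the filter on low counts. They were measured by bulk RNA sequencing in LSK cells, which are lineage-negative, Sca-1-positive and c-Kit-positive bone marrow cells enriched for stem cells and multipotent progenitors. The 3 control libraries came from C57BL/6J mice with both Etv6 alleles intact (Etv6+/+), and the 3 mutant libraries from C57BL/6J mice carrying 1 R355X allele (Etv6R355X/+), written Etv6+/- in the genotype label. All mice were 3 months old, no treatment is labelled for either group, and each library is 1 replicate number of its genotype. Nothing in the labels ties the replicate numbers to separate animals, so every p-value below measures the spread between these libraries, which may be technical.

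B cells arise from lymphoid progenitors in which the transcription factors Ebf1 and Pax5 switch on B-lineage genes and close off other fates. Pro-B cells rearrange the immunoglobulin heavy chain, and the new heavy chain then pairs with a surrogate light chain made of the Vpreb1 and Igll1 products. That pre-B receptor signals through the Cd79a and Cd79b chains and the adaptor Blnk, and it is the checkpoint at which pre-B cells expand. These genes belong mainly to cells past the LSK stage, although low levels occur in lymphoid-primed progenitors. Germline ETV6 variants in people predispose to B-cell leukemia.

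The libraries held 45.2 to 92.2 M expected counts, most of all in mutant replicate 1. Ribosomal RNA took its highest share there too, 9.87% against 6.73% to 7.45% in the other 5. Etv6 itself measured 454, 419 and 400.1 CPM (read counts relative to the TMM-scaled library size) in the wild-type libraries and 305, 341 and 386 CPM in the mutant libraries, and it did not pass (adjusted p = 0.245, edgeR's quasi-likelihood test). The gate markers were present in every library, with Kit at 419 ± 33.0 and 378 ± 23.5 CPM, and Ly6a, which encodes Sca-1, at 85.8 ± 12.2 and 78.2 ± 2.80 CPM (wild type first, SD, n = 3 each).

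Every one of the 9 genes had a higher mean in the mutant libraries than in the wild-type libraries, with fitted differences from 1.34-fold for Cd79b up to 2.51-fold for Vpreb1. None of the 9 passed the threshold of 0.05 on the p adjusted over the whole table (edgeR, quasi-likelihood), and adjusted p ran from 0.135 to 0.372. In the same test, 55 of 20646 genes passed, which is 0.266% of all genes tested, and 0.189% passed as higher. An unadjusted p under 0.05 in the direction of the mutant was found for 9 of 9, against 5.83% of all genes tested. The median log2 fold change was 1.02 over the 9 genes and 0.0019 over all tested genes. In bulk RNA, more cells that express these genes and more of this RNA per cell cannot be told apart.

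Mutant replicate 1 held the highest level of the 6 libraries for 9 of 9 genes, against 24.4% of all genes tested, and mutant replicate 3 was the mutant library nearest to wild type for 9 of 9. Relative to the wild-type mean, the 9 genes had a median of 3.15-fold in mutant replicate 1, 1.81-fold in mutant replicate 2 and 1.24-fold in mutant replicate 3. The wild-type libraries had medians of 1.02-fold, 0.846-fold and 1.12-fold. All 9 genes in mutant replicates 1 and 2, and 7 of them in mutant replicate 3, lay above every wild-type value. The genotypes therefore did not overlap for 7 of 9 genes, against 8.45% of all tested genes, and Igll1 and Lef1 were the exceptions.

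**Figure D1:**
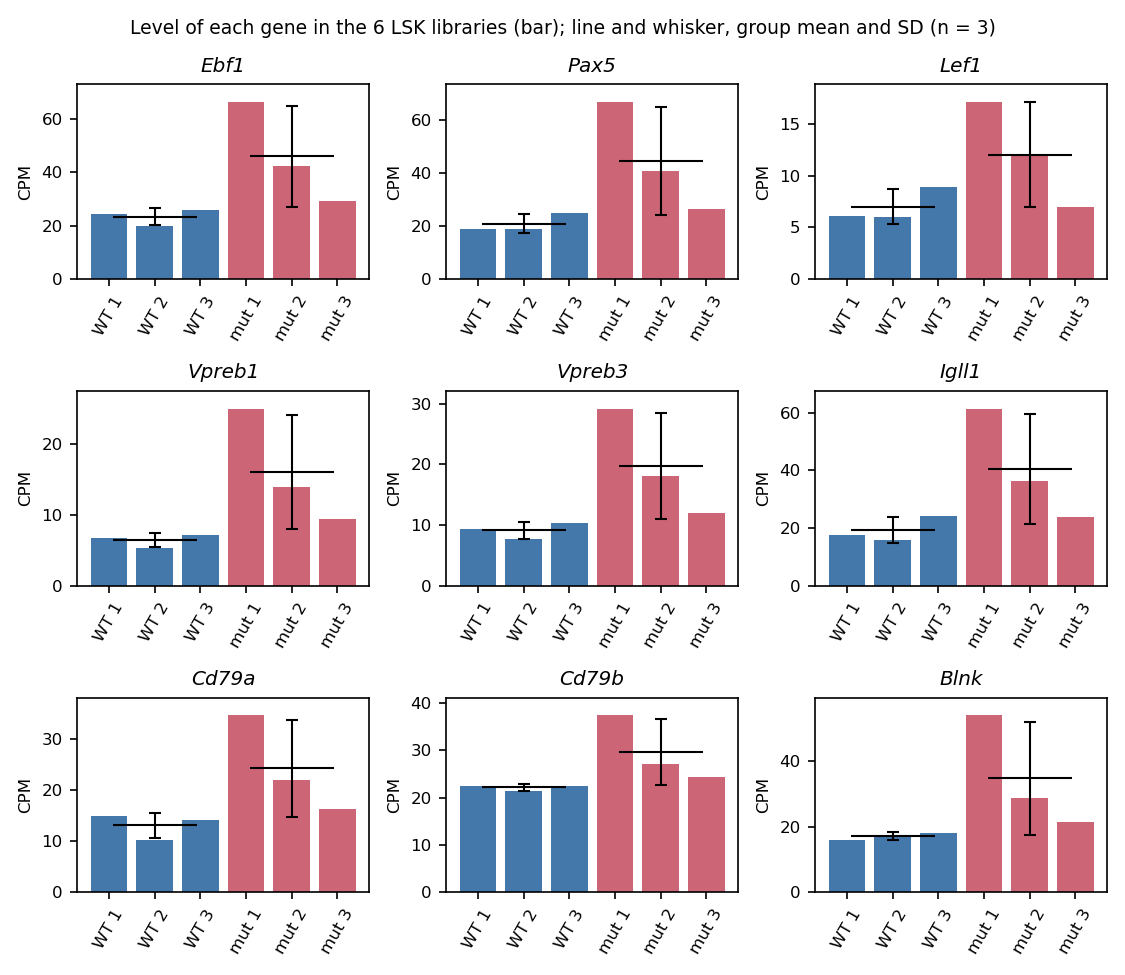
Each panel gives 1 gene, with a bar for its level in CPM in each of the 6 libraries and a line with whiskers for the mean and SD of each genotype (n = 3). In every panel mutant replicate 1 is the tallest bar, and mutant replicate 3 stands within or just above the wild-type bars.

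Ebf1 encodes early B-cell factor 1, which opens B-lineage chromatin and activates Pax5 and the pre-B receptor genes. It lies on chromosome 11 from 44617317 to 45008091 in mm10 (ENSMUSG00000057098.14). Its level was 24.5, 19.8 and 25.9 CPM in wild-type replicates 1 to 3 and 66.2, 42.5 and 29.2 CPM in mutant replicates 1 to 3. The mutant libraries were all above the wild-type ones, but mutant replicate 3 by only a few CPM. The log2 fold change was 0.98 (SE 0.23, adjusted p = 0.169, edgeR). These values rest on 967 to 1503 expected counts in wild type and 1309 to 5791 in the mutant.

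Pax5 encodes the factor that commits pro-B cells by activating Cd79a and Blnk and repressing genes of other lineages. It lies on chromosome 4 from 44524757 to 44710487 (ENSMUSG00000014030.15). Pax5 measured 18.8, 18.8 and 25.0 CPM in the wild-type libraries and 66.8, 41.0 and 26.5 CPM in the mutant. The genotypes did not overlap, with mutant replicate 3 close to wild-type replicate 3. Its log2 fold change was 1.11 (SE 0.26, adjusted p = 0.168, edgeR).

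Lef1 encodes a high-mobility-group factor of the Wnt pathway that pro-B cells need to survive and that T-cell progenitors also use. Its position is chromosome 3 from 131110471 to 131224356 (ENSMUSG00000027985.14). The wild-type libraries had 6.07, 6.00 and 8.93 CPM and the mutant libraries 17.1, 12.1 and 6.95 CPM. Mutant replicate 3 fell inside the wild-type range, and the other two mutant libraries were above it. The fitted log2 fold change was 0.79 (SE 0.28), with the highest adjusted p of the 9 genes (0.372, edgeR).

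Vpreb1 and Igll1 encode the paired chains of the surrogate light chain, and they are neighbours on the minus strand of chromosome 16, with 4417 bases between them. Vpreb1 (16868403 to 16870843, ENSMUSG00000059305.12) measured 6.80, 5.28 and 7.18 CPM in the wild-type libraries and 25.0, 13.9 and 9.38 CPM in the mutant. It had the largest log2 fold change of the 9 (1.33, SE 0.29) and the lowest adjusted p (0.135, edgeR), and the genotypes did not overlap. Igll1, the lambda-5 chain (16860671 to 16863985, ENSMUSG00000075370.12), measured 17.7, 16.0 and 24.3 CPM in the wild-type libraries and 61.3, 36.4 and 23.8 CPM in the mutant. Mutant replicate 3 lay just under wild-type replicate 3, so the genotypes overlapped, and the log2 fold change was 1.08 (SE 0.28, adjusted p = 0.208, edgeR). Exons of Vpreb1 overlap those of Top3b, a topoisomerase gene on the opposite strand, and counts without strand cannot separate these genes there. Top3b measured 57.1 CPM in the wild-type libraries and 50.7 CPM in the mutant (adjusted p = 0.429, edgeR). Exons of Pax5 and Lef1 overlap antisense genes that stayed under 1 CPM in each library.

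Vpreb3 encodes a relative of Vpreb1 that binds newly made heavy chains inside the cell. It lies on chromosome 10 from 75943057 to 75949657 (ENSMUSG00000000903.3). Its values were 9.28, 7.68 and 10.3 CPM in the wild-type libraries and 29.2, 18.1 and 12.0 CPM in the mutant. Again all mutant libraries were above all wild-type libraries. The log2 fold change was 1.12 (SE 0.26, adjusted p = 0.163, edgeR).

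Cd79a and Cd79b encode the paired signalling chains that carry the pre-B and B cell receptors. Cd79a, on chromosome 7 from 24897381 to 24902197 (ENSMUSG00000003379.7), measured 14.8, 10.2 and 14.2 CPM in the wild-type libraries and 34.6, 21.8 and 16.2 CPM in the mutant. Cd79b, on chromosome 11 from 106311341 to 106314762 (ENSMUSG00000040592.11), measured 22.6, 21.4 and 22.6 CPM in the wild-type libraries and 37.5, 27.2 and 24.4 CPM in the mutant. Both genes were above wild type in each mutant library, Cd79b by less. The log2 fold changes were 0.89 (SE 0.24, adjusted p = 0.217) for Cd79a and 0.42 (SE 0.14, adjusted p = 0.325) for Cd79b in edgeR's test.

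Blnk encodes the adaptor that couples the receptor and the kinase Syk to downstream signalling. It lies on chromosome 19 from 40928927 to 40994535 (ENSMUSG00000061132.13). The wild-type libraries were close together at 15.9, 17.4 and 18.1 CPM, and the mutant libraries had 53.9, 28.7 and 21.3 CPM. All mutant values were above all wild-type values, with the mutant libraries much further apart than the wild-type ones. The log2 fold change was 1.02 (SE 0.26, adjusted p = 0.208, edgeR).

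**Figure D2:**
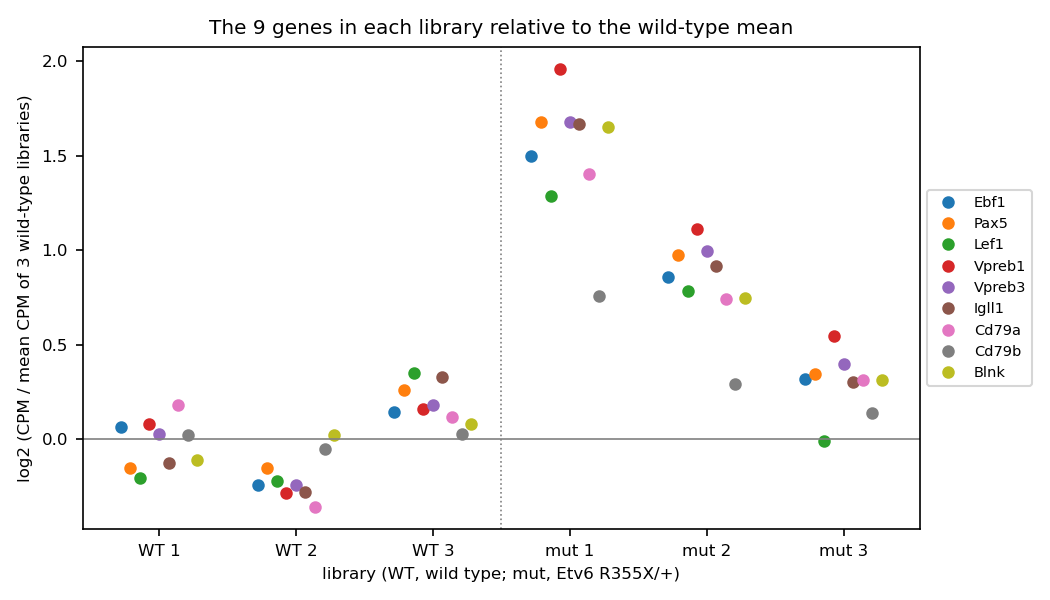
Each point is 1 gene in 1 library, as log2 of its CPM over the mean of the 3 wild-type libraries. The 9 genes shift in the same direction in mutant replicates 1 and 2, with Vpreb1 the highest and Cd79b or Lef1 the lowest point in each mutant library.

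The spread among the mutant libraries was wider than among the wild-type ones for all 9 genes, with an SD of 18.8 against 3.20 CPM for Ebf1 and of 17.1 against 1.15 CPM for Blnk. Leaving out mutant replicate 1 lowered the log2 fold changes to between 0.22 (Cd79b) and 0.86 (Vpreb1), all 9 still above 0. Leaving out mutant replicate 3 raised them to between 0.55 and 1.60. In that comparison Ebf1, Pax5, Vpreb1, Vpreb3, Igll1 and Blnk passed, 6 of 9 against 0.313% of all genes tested, with a lowest adjusted p of 0.0223 in edgeR's test. Without any count filter all 9 passed, where 1.58% of all genes tested did. In DESeq2 0 of 9 passed against 1.77%, with 8 of 9 at an unadjusted p under 0.05 and a lowest adjusted p of 0.0857. Robust estimation weakened the result. There 6 of 9 had an unadjusted p under 0.05, and adjusted p ran from 0.297 to 0.496 in edgeR's test.

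**Figure D3:**
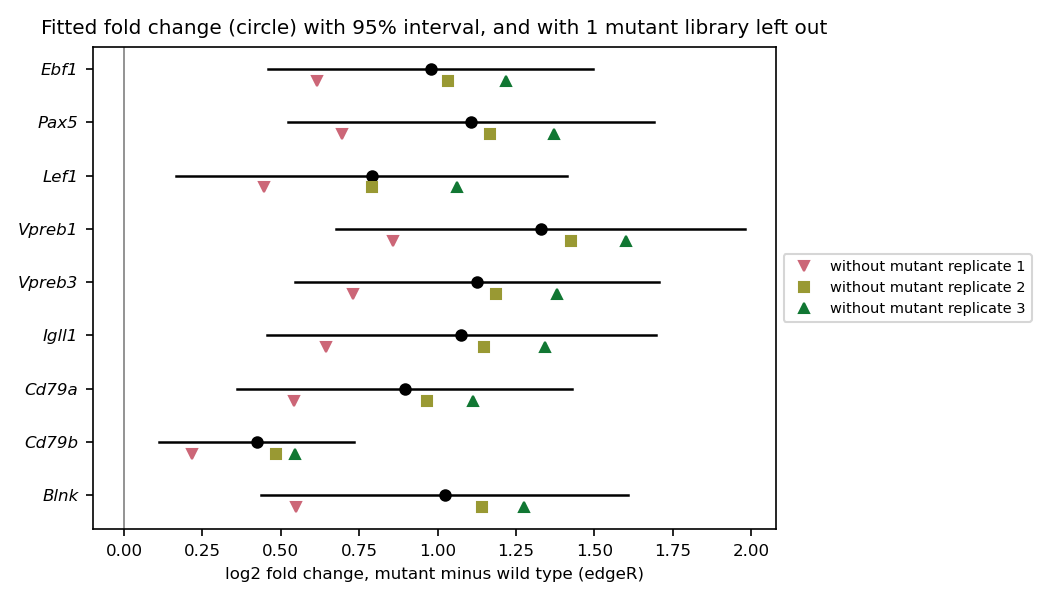
Circles give the fitted log2 fold change of mutant over wild type for each gene with its 95% interval before adjustment, and the smaller symbols the fit with 1 mutant library left out. All symbols lie above 0, and for each gene the value without mutant replicate 1 is the lowest and that without mutant replicate 3 the highest.

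Levels of different genes were compared per length, as counts per base of annotated exon scaled to the same sum in each library. In wild type, Cd79b was the most abundant at 37.4 ± 0.795 units (SD, n = 3), with no overlap with the next gene. Vpreb3 (25.5 ± 3.52), Cd79a (21.6 ± 3.98) and Igll1 (21.5 ± 4.75) followed and overlapped one another. Vpreb1 (12.9 ± 1.91) stood apart from them and from the genes below it. Blnk (6.90 ± 0.467), Ebf1 (5.78 ± 0.740) and Pax5 (5.69 ± 0.931) came next, with Pax5 overlapping the other two, and Lef1 (1.92 ± 0.445) was the lowest without overlap. In the mutant Vpreb3 had the highest mean, 51.4 ± 19.4 units, beside 46.7 ± 7.74 units for Cd79b, and the libraries overlapped. With the length of the longest transcript in place of all exons, the order in wild type was less distinct. Vpreb1 (17.1 ± 2.53) then overlapped Igll1 (18.3 ± 4.03) and Cd79a (18.4 ± 3.40), Ebf1 (8.03 ± 1.03) had a higher mean than Blnk (7.76 ± 0.516), and Pax5 (5.35 ± 0.873) overlapped Lef1 (3.93 ± 0.908) in place of Ebf1 and Blnk.

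Ratios between members use 2 CPM values from the same library, so the scaling cancels. The ratio of Cd79b to Cd79a was 1.52, 2.10 and 1.59 in wild type and 1.08, 1.24 and 1.51 in the mutant, lower in each mutant library. The ratio of Vpreb3 to Vpreb1 was 1.42 ± 0.0474 in wild type and 1.25 ± 0.0744 in the mutant (SD, n = 3), again with no overlap. The exact permutation test (two-sided) gave each a p of 0.1, which no 3 against 3 design can go below, and 0.3 after Benjamini-Hochberg adjustment over the 6 ratios computed. Vpreb1 to Igll1 was 0.337 ± 0.0447 in wild type and 0.394 ± 0.0133 in the mutant (SD, n = 3, exact permutation p = 0.2, adjusted 0.4). Pax5 to Ebf1 was 0.894 ± 0.110 and 0.961 ± 0.0493 (exact permutation p = 0.4, adjusted 0.48), and stayed between 0.768 and 1.01 in all 6 libraries. Blnk to Cd79a and Lef1 to Ebf1 overlapped too (exact permutation p = 0.8 and 0.3, adjusted 0.8 and 0.45).

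Promoter sequences are shown for 4 of the genes whose levels move together, since E-proteins such as the Tcf3 product, which bind E-boxes, and the Ebf1 product act together on B-lineage promoters. The windows run from 250 bases before to 50 after an annotated RefSeq start in GRCm38.p6, the assembly behind mm10, and are written 5′ to 3′ on the gene's strand. Capitals mark the E-box CAGGTG or its reverse complement CACCTG, and in Igll1 also the EBF core CCCNNGGG. The windows shown are Igll1 at chr16:16863936-16864235 on the minus strand, Vpreb1 at chr16:16869206-16869505 on the minus strand, Cd79a at chr7:24897247-24897546 on the plus strand and Blnk at chr19:40994172-40994471 on the minus strand.
Igll1: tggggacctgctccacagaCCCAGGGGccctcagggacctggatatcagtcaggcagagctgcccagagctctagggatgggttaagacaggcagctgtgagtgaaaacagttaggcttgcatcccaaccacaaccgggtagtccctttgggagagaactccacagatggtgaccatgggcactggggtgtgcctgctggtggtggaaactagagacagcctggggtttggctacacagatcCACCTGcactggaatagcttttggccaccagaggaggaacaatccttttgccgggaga
Vpreb1: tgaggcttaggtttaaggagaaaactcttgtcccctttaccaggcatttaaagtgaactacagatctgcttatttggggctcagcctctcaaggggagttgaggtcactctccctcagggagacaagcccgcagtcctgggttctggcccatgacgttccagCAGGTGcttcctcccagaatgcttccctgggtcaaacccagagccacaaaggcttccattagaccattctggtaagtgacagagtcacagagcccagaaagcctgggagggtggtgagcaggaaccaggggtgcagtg
Cd79a: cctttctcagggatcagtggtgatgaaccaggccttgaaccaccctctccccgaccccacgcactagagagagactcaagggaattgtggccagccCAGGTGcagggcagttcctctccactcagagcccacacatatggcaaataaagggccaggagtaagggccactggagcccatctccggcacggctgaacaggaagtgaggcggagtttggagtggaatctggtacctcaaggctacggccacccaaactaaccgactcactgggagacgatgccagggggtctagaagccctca
Blnk: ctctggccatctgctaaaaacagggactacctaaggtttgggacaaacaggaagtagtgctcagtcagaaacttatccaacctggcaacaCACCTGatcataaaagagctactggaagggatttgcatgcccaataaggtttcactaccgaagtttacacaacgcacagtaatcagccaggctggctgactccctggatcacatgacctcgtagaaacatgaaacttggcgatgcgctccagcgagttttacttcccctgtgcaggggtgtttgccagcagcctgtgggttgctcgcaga

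Windows were found for 8 of the 9 genes, with Cd79b the missing one, and Lef1 and Ebf1 have several, which makes 12 windows. The Lef1 windows that start at 131110047 and 131110073 overlap for most of their length, so the 12 are not all separate sequence. The E-box CAGGTG was searched on both strands and was in 5 of the 12 windows, 1 each of the 4 genes above and Lef1, against 20.3% of 32544 RefSeq promoter windows of that length. Counted from the start site, it begins at -154 in Cd79a, at -8 in Igll1, at -88 in Vpreb1, at -160 in Blnk and at 31 in Lef1. The EBF core CCCNNGGG, which reads the same on both strands, was in 1 of the 12 windows, that of Igll1, at -231, against 13.7% of all windows. The TCF/LEF letters CTTTGAA or CTTTGAT were in 1 of the 12, a window of Ebf1, against 8.67%. For the ETS family, to which Etv6 belongs, the core GGAA was in 12 of 12 and in 96% of all windows, and the longer CCGGAAGT, which contains GGAA, in 0 of 12 and in 3.92%. A match describes letters in a window and does not show a bound site.

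Other genes of the pathway were taken from 6 lists with 107 tested genes in all. By the naming rule, the genes named are those with the smallest p of each list in edgeR's test of these same libraries. That choice favours genes whose genotypes separate, so their lack of overlap is descriptive and does not stand for the list. Of 25 tested transcription factors of early B development, 0 passed in edgeR's test, 7 were higher and 1 lower at an unadjusted p under 0.05, and the median log2 fold change was 0.056. Pou2af1, a B-cell coactivator, measured 32.4, 34.9 and 31.3 CPM in the wild-type libraries and 76.2, 46.2 and 41.0 CPM in the mutant. The genotypes separate without overlap, with mutant replicate 1 again the highest (log2 fold change 0.73, SE 0.19, adjusted p = 0.200, edgeR). Bach2, a repressor that favours B over myeloid fate, measured 27.5 ± 2.80 and 34.8 ± 2.41 CPM, and Mef2c, a lymphoid activator, 322, 307 and 264 CPM and 338, 360.3 and 351 CPM. Pou2f2, the factor that Pou2af1 partners, measured 53.6 ± 5.63 and 68.7 ± 11.3 CPM and overlapped.

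Tcf3, which encodes the E2A proteins, measured 36.3, 34.2 and 39.4 CPM in the wild-type libraries and 49.9, 39.4 and 37.8 CPM in the mutant, with mutant replicates 2 and 3 inside the wild-type range. Foxo1, which activates Il7r and the Rag genes, measured 31.2 ± 2.11 and 39.3 ± 6.43 CPM (n = 3 each). Tcf3 and Foxo1 fall outside the naming rule, which itself selects by p, and were likewise chosen after their values were seen. Among 10 tested relatives and partners of Ebf1, Pax5 and Lef1, 0 passed and the median log2 fold change was -0.060. Tcf7, the Lef1 relative of T-cell progenitors, measured 3.91 ± 0.403 and 5.38 ± 1.30 CPM, and Tle1, a corepressor, 13.2 ± 1.06 and 10.7 ± 1.26 CPM (n = 3 each). Zfp521, an antagonist of Ebf1, measured 40.8 ± 6.40 and 35.8 ± 5.04 CPM, and Tcf7l2 33.8 ± 4.62 and 30.5 ± 0.880 CPM.

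The recombinase genes Rag1 and Rag2, which cut immunoglobulin gene segments, had fold changes within the range of those of the 9 genes. Rag1 measured 14.3, 14.6 and 15.7 CPM in the wild-type libraries and 43.1, 27.0 and 23.0 CPM in the mutant, and Rag2 16.9, 17.4 and 16.4 CPM and 46.5, 27.7 and 23.9 CPM. Both were separated without overlap, with mutant replicate 1 highest, and had log2 fold changes of 1.07 (SE 0.19, adjusted p = 0.0617) and 0.95 (SE 0.20, adjusted p = 0.113) in edgeR's test. Rag1 passed with library size alone, in DESeq2, without mutant replicate 1 alone or with wild-type replicate 3, without mutant replicate 3, and without a count filter. Rag2 passed without a count filter and without mutant replicate 3. Dntt, which adds random nucleotides at the joints and is already high in lymphoid-primed progenitors, measured 344 ± 41.1 and 407 ± 79.4 CPM and overlapped, and the DNA-end protein gene Xrcc5 22.3 ± 1.39 and 26.1 ± 0.455 CPM (n = 3 each). Of the 15 recombination genes, 0 passed, 3 were higher at an unadjusted p under 0.05, and the median was 0.14.

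Receptor signalling genes were 29 in number, of which 0 passed in edgeR's test, 8 were higher and 0 lower at an unadjusted p under 0.05, and the median was 0.085. Vpreb2, a near copy of Vpreb1 whose counts depend on how shared reads were split, measured 0.799, 0.840 and 1.35 CPM in the wild-type libraries and 4.80, 2.47 and 1.49 CPM in the mutant. Its mutant libraries repeat the pattern of Vpreb1 at a much lower count (log2 fold change 1.57, SE 0.40, adjusted p = 0.202, edgeR), and it passed in DESeq2 and without a count filter. Bank1, a B-cell scaffold protein gene, measured 12.7 ± 1.93 and 19.4 ± 0.766 CPM, the receptor-like gene Fcrl1 3.78 ± 0.640 and 6.11 ± 0.874 CPM, and the tetraspanin gene Cd81 127 ± 2.10 and 145 ± 0.861 CPM (n = 3 each), all without overlap. Mutant replicate 1 was not the highest library for any of these 3 genes. The mu heavy chain gene Ighm, the partner of the surrogate light chain, measured 1688 ± 427 and 2282 ± 197 CPM (n = 3 each). Ighm falls outside the naming rule and was likewise chosen after its values were seen. The kinase genes Syk and Btk, which act below the receptor in many blood cells, had log2 fold changes of 0.015 (below 0 with library size alone) and -0.043 and are likewise outside it.

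Among 22 genes of interleukin 7 signalling and common lymphoid progenitors, 1 passed in edgeR's test, 8 were higher and 1 lower at an unadjusted p under 0.05, and the median was 0.094. The 1 that passed was Cnn3, a calponin gene, which rose from 16.7 ± 1.37 to 31.6 ± 7.22 CPM (n = 3 each, log2 fold change 0.93, SE 0.15, adjusted p = 0.0338, edgeR). That call was lost with limma-voom and without any 1 of wild-type replicates 1, 2 and 3 or mutant replicate 2. Notch1, the receptor that drives T-cell fate, measured 95.2 ± 4.74 and 116 ± 10.4 CPM, its target Dtx1 0.386 ± 0.196 and 1.17 ± 0.371 CPM, and Cd93, a surface marker of early B and progenitor cells, 373 ± 20.2 and 453 ± 40.6 CPM (n = 3 each). All mutant values of these 3 lay above all wild-type values. Ccr9, a chemokine receptor gene of thymus-homing progenitors and plasmacytoid dendritic cells, was lower at 18.8 to 29.9 CPM in wild type and 9.98 to 17.0 CPM in the mutant, and it was chosen after its values were seen. Of 8 genes that Pax5 is known to repress in B cells, 0 passed and the median was -0.027. They include Grap2 at 4.55 ± 0.248 and 5.62 ± 1.14 CPM, Emb at 257 ± 7.44 and 273 ± 14.1 CPM and Ccl3 at 8.96 ± 3.59 and 7.41 ± 1.69 CPM, all overlapping, and Notch1 again.

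**Figure D4:**
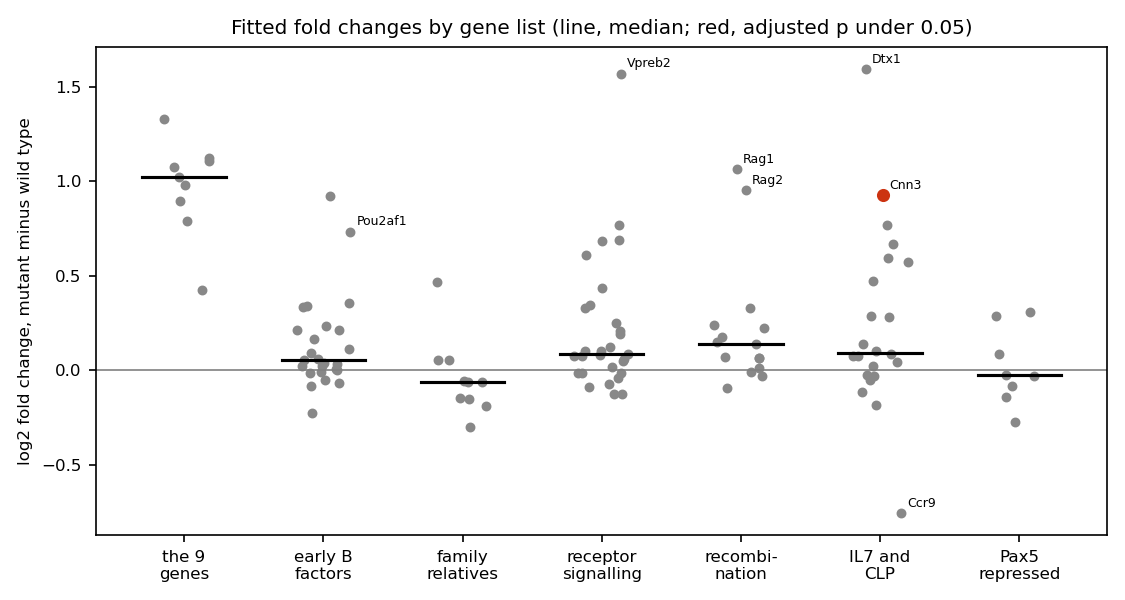
Each point is the fitted log2 fold change of 1 tested gene, grouped by list, with a line at the list's median and red for an adjusted p under 0.05. The 9 genes have a median of 1.02, the other lists have medians between -0.060 and 0.14, and Cnn3 is the red point.

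Markers of other cells that the sort could hold were summed in each library. The mature B cell list (12 of 12 tested) summed to 199 to 228 CPM in the wild-type libraries and 248 to 270.5 CPM in the mutant, without overlap. It had 0 calls and a median log2 fold change of 0.30. In this list 12 of 12 genes had a log2 fold change above 0. At an unadjusted p under 0.05 (edgeR), 4 were higher and 0 lower, and 4 were higher without overlap. Over all genes tested, 5.83% were higher at that level and 8.45% were higher without overlap. Its most abundant genes were Cd37 at 78.5 ± 2.32 and 93.6 ± 4.16 CPM and H2-Ob at 68.4 ± 9.14 and 80.2 ± 1.68 CPM (n = 3 each). Ms4a1, which encodes CD20, had 4.99, 3.48 and 3.30 CPM in the wild-type libraries and 6.52, 3.11 and 4.52 CPM in the mutant, and Ighd overlapped as well at 12.8 ± 1.35 and 15.4 ± 3.30 CPM (both chosen after their values were seen). Plasma cell markers summed to 1361, 855 and 730.1 CPM in the wild-type libraries and 794, 654 and 554 CPM in the mutant, which overlap. Of the 9 genes in that list 1 passed, and 4 had a log2 fold change above 0 and 5 below. At an unadjusted p under 0.05 (edgeR), 0 were higher and 4 lower, and 3 were lower without overlap. Shares over all genes were not computed for lower genes or for the sign alone, so such counts of any list are descriptive. Ighg2b, which measured 430.3, 129 and 104 CPM in the wild-type libraries, takes much of the high sum of wild-type replicate 1 (named after its values were seen). The 1 that passed, Igha, the IgA constant region, fell from 343 ± 103 to 162 ± 21.0 CPM (n = 3 each, adjusted p = 0.0390, edgeR) and Jchain measured 230.3 ± 38.3 and 273 ± 88.2 CPM. The Igha call was lost with a filter at a mean of 1 CPM, in limma-voom, with robust estimation, and without any 1 of wild-type replicates 1 and 2 and mutant replicates 1, 2 and 3, with adjusted p from 0.00674 to 0.174 when 1 library was left out (edgeR).

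Macrophage markers summed to 121 to 128 CPM in the wild-type libraries and 200, 152 and 130.3 CPM in mutant replicates 1, 2 and 3, and 10 of 11 were highest in mutant replicate 1, the library where the 9 genes peaked. Mast cell, basophil and eosinophil markers summed to 45.6 to 47.9 CPM in wild type and 61.4 to 77.6 CPM in the mutant, and 8 of 8 tested genes had a log2 fold change above 0. Natural killer cell markers summed to 96.9 to 127 CPM in wild type and 113 to 151 CPM in the mutant. Nkg7, at 102 ± 17.3 and 118 ± 15.2 CPM (n = 3 each), made up most of that sum. Of the natural killer genes, 8 of 8 had a log2 fold change above 0. T cell markers summed to 31.9 to 43.7 and 31.7 to 35.5 CPM, erythroid markers to 334 to 491 and 360.1 to 531 CPM, plasmacytoid dendritic cell markers to 525 to 666 and 529 to 567 CPM, and neutrophil markers to 5677 to 8355 and 4388 to 6199 CPM (wild type first). These 4 lists and the natural killer list overlapped between genotypes. Calls numbered 2 of 10 erythroid genes, 1 of 8 natural killer genes and 1 of 8 mast cell, basophil and eosinophil genes, all higher, 1 of 10 plasmacytoid dendritic cell genes, lower, and 0 macrophage, T cell or neutrophil genes. The natural killer call was Klrb1c, at 1.46 ± 0.423 and 5.18 ± 1.09 CPM (n = 3 each, adjusted p = 0.0177, edgeR). At an unadjusted p under 0.05 (edgeR), 8 of 11 macrophage and 7 of 8 mast cell, basophil and eosinophil genes were higher and 0 lower. Of all genes tested, 5.83% were higher at that level. Counts higher and lower were 2 and 0 for erythroid, 1 and 0 for natural killer, 1 and 4 for plasmacytoid dendritic cell, 0 and 2 for T cell and 0 and 1 for neutrophil genes. None of the markers in these lists was at 0 in every library. The gate markers summed to 1722 to 2214 CPM in wild type and 1735 to 1959 CPM in the mutant. The part that carried-over cells of these types have in the values of the 9 genes was not tested.

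**Figure D5:**
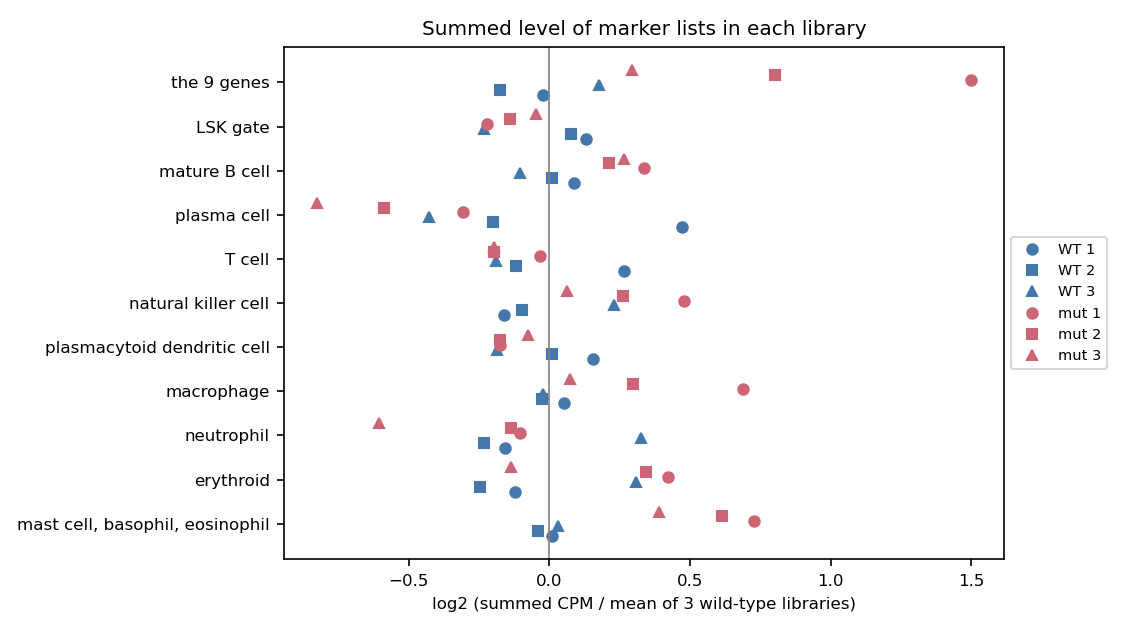
Points give the summed CPM of each marker list in each library, as log2 of its ratio to the mean of the 3 wild-type libraries. The 9 genes reach the highest ratios, in mutant replicate 1. Each mutant library of the mature B cell, macrophage and mast cell lists lies above the wild-type libraries, and the plasma cell sums overlap between genotypes.

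Outside these lists, the 6 genes whose profile over the 6 libraries was most like the mean standardised profile of the 9 were Itgam, Psmb9, Cecr2, Arntl and the pseudogenes Rpl31-ps20 and Ybx1-ps2. Their likeness, Pearson's r of log2 CPM, lay between 0.990 and 0.995 and is a description over 6 libraries of the same 2 genotypes, picked from all tested genes. Itgam, which encodes the myeloid integrin CD11b, measured 79.7, 73.4 and 82.4 CPM in the wild-type libraries and 119, 95.1 and 85.3 CPM in the mutant. Cecr2, a chromatin-remodelling factor gene, measured 17.5, 15.4 and 22.7 CPM and 47.1, 30.6 and 21.0 CPM, with mutant replicate 3 inside the wild-type range. Psmb9, an immunoproteasome subunit gene, measured 111 ± 2.37 and 132 ± 16.3 CPM, and the circadian factor gene Arntl 10.1 ± 0.581 and 13.8 ± 3.18 CPM (n = 3 each). None of the 6 passed in edgeR's test, with the lowest adjusted p at 0.264 for Cecr2.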

How the data were processed

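The study sequenced RNA of sorted LSK cells in 6 libraries. Per the labels' protocols, a kit based on isothermal amplification from single primers turned total RNA into cDNA, which was sheared for libraries without strand marks. The authors deposited expected counts, 1 value per gene and library, with no scaling. Tools named in the submitters' processing notes are RSEM 1.31, STAR 2.7 and Trim Galore 0.60, and the build is mm10. The annotation release is not given in the sources used here. Such counts split reads shared by similar genes, which concerns Vpreb1 and Vpreb2.

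Expected counts were rounded, 92 spike-in rows at 0 were left out, and all genes were fitted together with edgeR 4.0.16 (R 4.3.3): filterByExpr, TMM, quasi-likelihood test, two-sided, no covariates, Benjamini-Hochberg adjustment over 20646 genes, threshold 0.05. CPM uses the TMM-scaled library size. Errors are SD over n = 3 libraries, SE is the fold change over the root of its F statistic, and intervals are 95%. Positions and exon lengths come from GENCODE M21 (mm10), matched by identifier without version, and promoters from RefSeq GRCm38.p6.

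The 9 genes and all lists were chosen with earlier results of these data known. Named genes are the 9, the 4 of each list with the smallest p, the 2 most abundant markers of each cell type (given where a result turns on them), and the 6 genes most like the 9 with a mean of at least 1 CPM, leaving out the Gm and Rik series. Replicates differed beyond counting noise in each pair within a genotype (chi-square per gene 11.3 to 48.6). The procedure was tested on data simulated from this comparison (5 draws, 200 changed genes, at least 20275 genes tested): 28.5% of changes of 1.5-fold, 65.7% of 2-fold and 88.6% of 4-fold were called, and 10.3% of calls were false. Alternatives were DESeq2 1.42.0, limma-voom (limma 3.58.1), robust estimation, unrounded counts, RLE factors or no scaling factors, other filters, leaving out ribosomal RNA and mitochondrial genes, the replicate number as a block, and leaving out libraries.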

Additional observations from a re-analysis of the deposited data

How the results depend on the processing

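Each of the 9 genes was higher in the mutant in all 17 alternatives (153 of 153 values). The alternatives refit the same 6 libraries or a part of them, and the 9 genes share a profile, so these values are not independent. None of the 9 passed in 15 of the 17. All 9 passed without a count filter, and from 0 to 6 passed with a single library left out (6 without mutant replicate 3). The median log2 fold change of the 9 was 0.62 without mutant replicate 1, and 0.69 when wild-type replicate 3 was left out with it. Over all genes, 55 calls became 527 without a count filter, 329 in DESeq2, 32 under the replicate block, and 16 to 67 with 1 library left out. Without a count filter the calls were 3 early B factors, 5 receptor signalling genes, 2 recombination genes, 6 of the interleukin 7 list and 1 of the genes repressed by Pax5. DESeq2 called 3, 1, 4 and 1 in the last 4 lists. Of the recombination list 1 gene passed with library size alone, 1 without both mutant replicate 1 and wild-type replicate 3, and 0 to 2 with 1 library left out. The single call of the interleukin 7 list became 0 in limma-voom and under the replicate block, and 0 to 1 with 1 library left out. Without both mutant replicate 1 and wild-type replicate 3 the log2 fold changes of Dntt, Ms4a1 and Jchain turned to -0.014, -0.16 and -0.17, and that of Syk turned to -0.020 with library size alone. With 1 library left out, those of Ms4a1 and Jchain ran from -0.047 to 0.49 and from -0.038 to 0.43, below 0 without mutant replicate 1, and that of Syk from -0.0060 to 0.052, below 0 without wild-type replicate 2. The log2 difference of the ratio of Blnk to Cd79a, 0.067, ran from -0.086 to 0.25 with 1 library left out, and was below 0 without wild-type replicate 1 and without mutant replicate 1 (-0.014), a check chosen after seeing the data. The causes were not tested.

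Same-numbered libraries did not deviate together (r = -0.036, -0.089 and -0.173), and 0 of 6 correlated best with their own number, so the numbers do not pair them. With the block 0 of the 9 genes passed, with adjusted p from 0.213 to 0.598 in edgeR's test. With 3 libraries per genotype, a change of 1.5-fold was recovered in 28.5% of simulated cases, so a miss of the threshold does not show equal levels.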
